A study of Mus musculus with 7 samples.

Results

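The tissue described here is wild-type (WT) soft tissue of the mouse from next to a drilled mandible, 5 days after the injury. It was sampled in 4 libraries, chosen by their WT label, out of 7 in the series; the other 3 carry an Il17af-/- genotype and are not used here. The WT mice are littermates of those knockouts, all were kept free of specific pathogens, and the defect was 1.5 mm wide. The source is given as muscle together with soft callus, and polyadenylated RNA was sequenced from stranded libraries. Age, sex and strain are not given in the labels, nor does any label tie a library to 1 animal, so the spread between libraries may be partly technical. All values below are levels within this 1 group, and with 4 libraries an exact sign-flip test cannot give a two-sided p under 0.125, so no p is given.

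A bone defect with torn muscle around it passes through clotting and inflammation into a phase in which fibroblasts and skeletal progenitors lay down a soft, collagen-rich callus. Neutrophils arrive first and macrophages follow, clearing debris and releasing factors for stromal and muscle precursor cells. Injured muscle rebuilds its fibres from satellite cells, which pass through a myoblast stage and then form young fibres that carry embryonic and neonatal myosins. In bulk tissue, fewer cells of a type and less RNA per cell cannot be told apart, and this holds for every level below.

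Library totals were 21784565, 18539904, 18925451 and 26271176 counts for WT replicates 1 to 4, which puts a floor of 3 counts at 0.114 to 0.162 CPM, counts scaled to a common library total. Levels of different genes are compared as TPM, in which counts are divided by exon length before scaling, while a place by CPM ranks genes by their share of reads, which also grows with gene length. Values per library always follow the order of WT replicates 1 to 4, and means are given ± SD with n = 4. Of 13690 genes with a mean of at least 1 CPM, 14.0% differed at least 2-fold between their highest and lowest library (1915 genes), and the median ratio was 1.42. WT replicate 3 stood apart: it was the highest or the lowest library for 81.8% of these 1915 genes, and without it 664 genes differed 2-fold. Its Pearson correlations with the other libraries across genes (log2 CPM) were 0.968 to 0.973, against 0.987 to 0.989 among the others. Of the 13690 genes, 49.8% were highest and 22.7% lowest in replicate 3, and 27.5% were lowest in replicate 1. With TMM scaling, which sets library sizes by the bulk of genes, these shares were 32.1%, 36.2% and 22.3%, so counts of members highest or lowest in a library are read against both. WT replicate 2 differed in genes of the Y chromosome, seen after the values were known, with Ddx3y, an RNA helicase gene, at 90.02, 11.3, 71.02 and 84.6 CPM, and also in salivary genes, given further on.

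Genes were at least 1 CPM in every library in 13076 cases, and these genes held 99.7% of the counts. A small set carried much of the RNA. In replicates 1 to 4, 516, 518, 673 and 546 genes sufficed for 50% of all counts, and 64 genes at 1000 CPM or more in every library held 26.4%. Of the 30 genes with the highest mean CPM, 29 are plotted by library and 1 is a predicted gene that is not named. They fall into mitochondrial genes, collagens and other matrix genes, muscle genes and a few others.

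**Figure D1:**
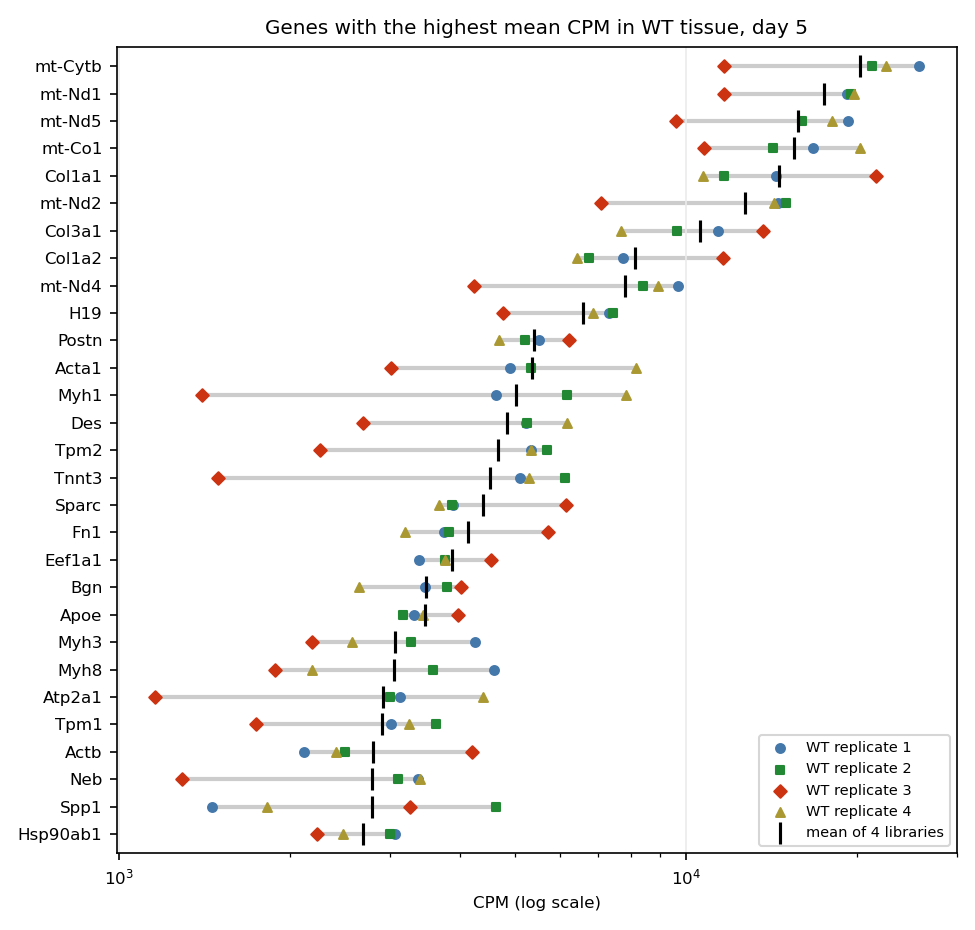
CPM (log axis) of the 29 named genes among the 30 with the highest mean CPM, with 1 marker per WT replicate, a grey line from the lowest to the highest library and a black tick for the mean of the 4 libraries. WT replicate 3 is at the right end for the collagens (21606 CPM for Col1a1) and at the left end for muscle and mitochondrial genes (1399 CPM for Myh1).

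The leaders outside the mitochondrial genome came from muscle fibres and from matrix-making cells. Col1a1 (ENSMUSG00000001506), a chain of type I collagen, had the highest mean CPM among nuclear genes at 14420.5, 11664, 21606 and 10717 CPM (14602 ± 4926). Per length, Acta1 (ENSMUSG00000031972), the actin of skeletal muscle, led the named nuclear genes at 9379.9, 9827, 6340.0 and 15396 TPM (10236 ± 3773). H19 (ENSMUSG00000000031), an imprinted non-coding RNA of embryonic tissue and regenerating muscle, reached 7299, 7420.1, 4748 and 6841 CPM (6577 ± 1244), the tenth place by mean CPM. Col1a1 was highest in replicate 3, while Acta1 and H19 were lowest there. Among genes outside muscle and matrix were Eef1a1, a translation elongation factor, at 3860.1 ± 486 CPM, Apoe, a lipid carrier that macrophages also make, at 3469 ± 346 CPM, and Hsp90ab1, a chaperone, at 2698 ± 408 CPM.

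The 250 bases before the start of 5 genes that lead their groups are printed to show the regulatory sequence next to the levels: an adult fibre gene, an embryonic fibre gene, a collagen, a matrix glycoprotein and a macrophage gene. They are RefSeq windows on GRCm38.p6, matched by symbol and read on the gene's strand; Col1a1 had no window and Spp1 had more than 1, so the next gene of their lists is shown. Capitals mark TATAAA and the E-box CANNTG, in which N is any base and which reads the same on both strands.
Acta1, chr8:123894776-123895025, minus strand: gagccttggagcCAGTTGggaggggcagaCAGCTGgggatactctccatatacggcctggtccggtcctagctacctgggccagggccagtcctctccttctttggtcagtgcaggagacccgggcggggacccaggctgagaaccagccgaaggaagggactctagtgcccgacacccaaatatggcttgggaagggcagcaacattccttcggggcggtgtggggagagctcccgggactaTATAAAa
Myh3, chr11:67078050-67078299, plus strand: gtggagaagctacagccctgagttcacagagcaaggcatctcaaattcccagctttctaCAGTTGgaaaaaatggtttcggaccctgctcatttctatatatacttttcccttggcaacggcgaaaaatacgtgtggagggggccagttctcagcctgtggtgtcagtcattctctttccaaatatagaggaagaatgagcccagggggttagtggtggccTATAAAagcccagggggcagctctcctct
Col3a1, chr1:45311288-45311537, plus strand: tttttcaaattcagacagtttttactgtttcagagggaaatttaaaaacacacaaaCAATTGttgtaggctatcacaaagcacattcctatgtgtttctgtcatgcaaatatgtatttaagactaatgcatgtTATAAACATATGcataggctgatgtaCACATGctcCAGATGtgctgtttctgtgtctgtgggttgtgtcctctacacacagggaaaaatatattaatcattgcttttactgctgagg
Sparc, chr11:55420081-55420330, minus strand: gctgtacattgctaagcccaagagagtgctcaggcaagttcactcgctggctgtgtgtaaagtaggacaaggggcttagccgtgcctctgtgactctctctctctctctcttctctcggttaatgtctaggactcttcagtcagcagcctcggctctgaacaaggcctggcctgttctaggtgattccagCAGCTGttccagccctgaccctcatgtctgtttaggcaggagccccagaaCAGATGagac
Lyz2, chr10:117282273-117282522, minus strand: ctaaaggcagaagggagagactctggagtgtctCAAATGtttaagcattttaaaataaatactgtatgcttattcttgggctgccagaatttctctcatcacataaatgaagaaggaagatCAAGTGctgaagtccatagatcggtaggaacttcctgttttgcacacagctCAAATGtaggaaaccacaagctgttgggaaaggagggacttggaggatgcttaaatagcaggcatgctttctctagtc
TATAAA was in the Acta1, Myh3 and Col3a1 windows, with its first base at −7, −29 and −117 from the start, and in Col3a1 it abuts an E-box with no overlap. Acta1 holds 2 E-boxes, Myh3 holds 1, Col3a1 4, Sparc 2 and Lyz2 3. Over all 32851 windows, 12.4% held TATAAA on either strand and 66.2% an E-box, and over the 13611 windows of genes with a mean of at least 1 CPM the shares were 6.94% and 58.0%. Of the 100 nuclear genes with the highest mean CPM 82 had a window, and over their 106 windows the shares were 21.7% and 63.2%. The matches are letters in a window and were not tested as sites.

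Genes of the adult contractile apparatus were the most abundant cell type list. The 25 genes held 4.74, 5.22, 1.99 and 5.94% of all counts (4.47 ± 1.73%), and 5.30% on average without replicate 3. Their median level was 806, 675, 331 and 1054 TPM (717 ± 301). All 25 members differed at least 2-fold between libraries, against 14.0% of all genes, and all 25 were lowest in replicate 3 under both scalings, against 22.7% of all genes (36.2% with TMM). The median ratio of highest to lowest library was 3.08 against 1.42 for all genes.

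Within the list Acta1 led, with fast isoforms next. The slow troponins and the slow myosin Myh7 were placed in a list of their own, so this order does not set fast against slow. After Acta1 came Tnnt3, the fast troponin T, at 9503, 10944, 3049 and 9674 TPM (8293 ± 3554), which stood above Acta1 in 2 of the 4 libraries, so their order was not fixed. Tnnc2, the fast troponin C, was at 6774, 8633, 2686 and 8366 TPM (6615 ± 2745), below Tnnt3 in each library. Mylpf, a fast regulatory light chain, was at 5878, 6457, 3327 and 6596 TPM (5564 ± 1524), below Tnnc2 in 3 of 4 libraries. For these genes replicate 3 held the lowest value.

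Myosin heavy chain genes, which set the speed of a fibre, were present as adult and as developmental forms. Myh1, the fast IIX heavy chain, was at 4625, 6171, 1399 and 7826 CPM (5005 ± 2737), a 5.60-fold range from replicate 3 to replicate 4. Myh3, the embryonic heavy chain, was at 2068, 1527, 1166 and 1231 TPM (1498 ± 411). Myh8, the neonatal heavy chain, was at 1147, 861, 518 and 539 TPM (766 ± 298). The exon-union length used was 11772 bases for Myh8 and 6057 for Myh3. With no length, their mean CPM were close, at 3061 and 3071. Both developmental myosins were highest in replicate 1 and lowest in replicate 3, whereas Myh1 was highest in replicate 4. The ratio of Myh3 to Myh1 in TPM was therefore uneven, at 0.964, 0.556, 1.64 and 0.345. Per length, Myh3 exceeded Myh1 in replicate 3 and in no other library. The adult heavy chains Myh2 and Myh4, also on the contractile list, are not in this ratio.

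The developing fibre list as a whole held 1.19, 0.972, 0.617 and 0.733% of counts (0.878 ± 0.256%). Its 10 members were all at 1 CPM or more in every library. All were lowest in replicate 3 under both scalings, against 22.7% of all genes (36.2% with TMM). A 2-fold range was passed by 1 of 10, near the 14.0% of all genes, and by 3 of 10 with TMM scaling. Actc1, the cardiac actin that young skeletal fibres also use, was at 1065, 1059.8, 862 and 982 TPM (992 ± 94.9). Myl4, an embryonic light chain, was at 451, 444, 351 and 386 TPM (408 ± 47.9). The median ratio of highest to lowest library was 1.50 for this list, against 3.08 for the adult contractile genes.

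Of 8 satellite cell and myoblast regulators with a mean of at least 1 CPM, 2 passed a 2-fold range (14.0% of all genes did), and their median ratio of 1.39 was near the 1.42 of all genes. Pax7, the transcription factor of quiescent and activated satellite cells, was at 20.1, 14.2, 16.6 and 19.8 CPM (17.7 ± 2.80). Myod1, which commits cells to the myoblast fate, was at 90.7, 79.9, 79.2 and 101 CPM (87.6 ± 10.1). Myog, which acts at terminal differentiation, was at 528, 411, 442 and 399 TPM (445 ± 58.3) and stood above Myod1 per length in each library. The list median was 14.6, 13.02, 17.3 and 15.1 TPM. Myf6, a regulator of mature fibres, was at 181, 138, 48.5 and 139 TPM with replicate 3 lowest, and Cdh15, the M-cadherin of muscle precursors, was at 66.9, 56.2, 60.7 and 74.1 TPM. Pax3 was under the floor in every library.

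Slow fibre genes were a mixed group. Tnnt1, the slow troponin T, led at 1186, 1203, 724 and 767 TPM (970.0 ± 259.6), and Tnnc1, the slow troponin C, followed at 572, 555, 496 and 445 TPM (517 ± 58.1). Tnni1, the slow troponin I, was almost level across libraries at 246, 236, 250.1 and 234 TPM (242 ± 7.82). The slow myosin Myh7, named after its value was seen, was at 14.8, 15.9, 24.04 and 19.9 CPM (18.6 ± 4.22) and was highest in replicate 3. Of 7 list members with a mean of at least 1 CPM, 5 were lowest and 2 highest in replicate 3 under both scalings. Of all genes 22.7% were lowest there (36.2% with TMM). The list median was 79.5, 68.6, 47.0 and 90.3 TPM.

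Energy and calcium genes of muscle followed the contractile list. The 18 energy supply genes held 1.19, 1.35, 0.789 and 1.61% of counts. Of these, 15 of 18 passed a 2-fold range, against 14.0% of all genes. In replicate 3, 16 of 18 were lowest (17 with TMM), against 22.7% of all genes (36.2% with TMM). Mb, the oxygen-binding myoglobin, was at 2416, 2955, 979 and 2891 TPM (2310.4 ± 919.9), and Aldoa, a glycolytic aldolase, at 2060.4, 2249.6, 1523 and 2815 TPM (2162 ± 534). Ckm, the muscle creatine kinase, was at 1497, 1964, 739 and 2429 TPM (1657 ± 721). Of 15 calcium handling genes 11 passed a 2-fold range and 14 were lowest in replicate 3 under both scalings, against the same shares of all genes. Atp2a1, the calcium pump of fast fibres, was at 2649, 2440.1, 1076 and 3652 TPM (2454 ± 1060.0). Pvalb, the calcium buffer of fast fibres, was at 340.1, 573, 54.7 and 519.6 CPM, a 10.5-fold range and among the widest that are given further on. Casq1, which stores calcium in the reticulum, was at 1095, 999, 416 and 1209.8 TPM (929.9 ± 353).

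The 13 protein-coding genes of the mitochondrial genome held 10.9, 9.77, 5.71 and 10.7% of counts (9.28 ± 2.43%), and 10.5% on average without replicate 3. mt-Cytb, cytochrome b of complex III, was at 25737, 21254, 11689.9 and 22503 CPM (20296 ± 6040.2) and headed the whole table by mean CPM. mt-Nd1 and mt-Nd2, subunits of complex I, were at 19226, 19505, 11650.1 and 19745 CPM and at 14515, 14999, 7078 and 14288 CPM. mt-Co1, a core subunit of cytochrome oxidase, was at 16779, 14208, 10774 and 20247 CPM (15502 ± 4007). The genome was not evenly covered: mt-Co2, named after its value was seen, was at 185, 195, 68.1 and 83.9 TPM (133 ± 66.2), far below mt-Co1 at 29619 ± 6779 TPM from the same genome. Nuclear pseudogene copies Gm29216, Gm10925, Gm28437 and Gm28661 had at most 12 counts in any library. Whether reads were lost between such copies was not tested, so the mitochondrial share is that of the counted reads.

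Collagens that form fibrils were the leading matrix group. The 9 genes held 3.92, 3.25, 5.48 and 2.92% of counts (3.89 ± 1.14%), 3.36% on average without replicate 3, and all 9 were highest in replicate 3 under both scalings, against 49.8% of all genes (32.1% with TMM). Col1a1 stood at 6477, 5026, 10638 and 4725 TPM (6717 ± 2724). Col3a1, the collagen of early wound matrix and reticular fibres, was at 3426, 2774, 4498 and 2262 TPM (3240.0 ± 965). Col1a2, the second chain of type I collagen, was at 1838, 1533, 3017 and 1497 TPM (1971 ± 714). The order Col1a1, Col3a1, Col1a2, Col5a1 was the same in each library. The ratio of Col1a1 to Col1a2 in TPM was 3.52, 3.28, 3.53 and 3.16. It rests on the exon-union lengths used, 6563 bases for Col1a1 and 12426 for Col1a2. With no length, their mean CPM were 14602 and 8129. Type I collagen has a pair of Col1a1 chains for each Col1a2 chain, but the TPM ratio is not read against this. The ratio of Col1a1 to Col3a1 was 1.89, 1.81, 2.36 and 2.09, highest in replicate 3. Col5a1, which helps to start fibrils, was at 796, 634, 1424 and 681 TPM (884 ± 367).

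Matrix glycoproteins came next among the matrix lists by share, with 2.08, 2.31, 3.04 and 1.91% of counts (2.34 ± 0.497%). Spp1, osteopontin, which macrophages as well as bone cells secrete, was at 2615, 7933, 6386 and 3198 TPM (5033 ± 2547). It was high in replicates 2 and 3 and low in replicates 1 and 4. Sparc, a collagen-binding protein of remodelling tissue, was at 3024, 2882, 5247 and 2799.7 TPM (3488 ± 1176). Postn, periostin of fibroblasts and periosteum, was at 1868, 1687, 2308 and 1555 TPM (1854 ± 328), and Fn1, fibronectin, at 944, 926, 1581 and 792 TPM (1061 ± 354). Sparc stood above Postn and Postn above Fn1 in each library, while Spp1 was above Sparc in 3 of 4.

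Proteins that fold and crosslink collagen were highest in replicate 3 in 16 of 16 cases and in 15 with TMM scaling, against 49.8% and 32.1% of all genes. A 2-fold range was passed by 2 of 16 (1 with TMM), near the 14.0% of all genes. Serpinh1, the collagen chaperone Hsp47, was at 1825, 1660.2, 3429 and 1606 TPM (2130.1 ± 871). P4hb, the disulfide isomerase that is part of prolyl hydroxylase, was at 928, 884, 1477 and 889 TPM (1044 ± 289). Lox, the lysyl oxidase that crosslinks collagen, was at 449.7, 347, 781 and 358 TPM (484 ± 203), and Loxl1 at 269, 244, 489 and 297 TPM. The order of these 4 genes was the same in each library.

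The other matrix lists held 0.603% of counts or less on average, with the other collagens first. Type VI collagen led the other collagens, with Col6a1 at 937, 809, 1309.9 and 657 TPM (928 ± 279), Col6a2 at 513 ± 144 TPM and Col6a3 at 408 ± 138 TPM, in this order in each library. Col12a1, a collagen on fibril surfaces, was at 753, 589, 1562 and 598 CPM, with replicate 3 above the others. Bgn, biglycan, led the small proteoglycans at 1672, 1757, 2126 and 1259.7 TPM (1704 ± 355). Aspn, asporin, followed at 1113, 780.1, 1467 and 788 TPM (1037 ± 326), and Ogn and Dcn were at 289 ± 71.7 and 170.3 ± 15.3 TPM. Of 14 basement membrane genes 0 passed a 2-fold range, near the 14.0% of all genes. Col4a1 was at 349, 333, 473 and 364 TPM, Col4a2 at 284 ± 42.1 TPM and Nid1, a linker of laminin and collagen, at 173 ± 31.3 TPM.

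Matrix proteases were led by Mmp14, a membrane-bound protease that activates Mmp2, at 276, 243, 474 and 239 TPM (308 ± 112). Mmp2, a gelatinase of stromal cells, was at 212, 212, 375 and 199.5 TPM (249.7 ± 83.7), below Mmp14 in each library. Mmp19 was at 95.1, 217, 119.9 and 63.7 TPM and was highest in replicate 2. Adam12, a protease of regenerating muscle and stroma, was at 113, 84.6, 146 and 72.3 TPM. Mmp13, the collagenase of cartilage and bone, was at 7.90, 12.8, 75.2 and 19.1 CPM, a 9.53-fold range with replicate 3 highest. Among inhibitors, Timp1 was at 416, 604, 984 and 361 TPM (591 ± 282), Serpinf1 at 514 ± 181 TPM, Cst3 at 449.8 ± 109.5 TPM and Timp2 at 374 ± 70.3 TPM. Their order changed from library to library, each step holding in 3 of 4.

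The 24 cell type lists were ranked by the median TPM of their members. Of 276 pairs of lists, 246 had the same order in all 4 libraries, and 9 of 23 neighbouring steps did. The contractile list came first in each library. The developing fibre list was second at 259 ± 29.1 TPM on average and the red blood cell list next at 135 ± 106 TPM, but these changed places in 1 library. Fibroblast, slow fibre and macrophage lists, at 78.5 ± 6.39, 71.3 ± 18.5 and 64.00 ± 20.8 TPM, did not differ in order beyond their spread. Blood endothelium, pericytes, osteoclasts, skeletal progenitors and satellite cells followed between 28.2 and 14.99 TPM. The lists of lymphatic endothelium, nerve, fat, class II, osteoblast and neutrophil genes ran from 5.70 to 2.34 TPM, and mast, T, cartilage, B and epithelial lists were at 1.10 TPM or less. A list median depends on its members, so the order ranks lists, not cell numbers.

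**Figure D2:**
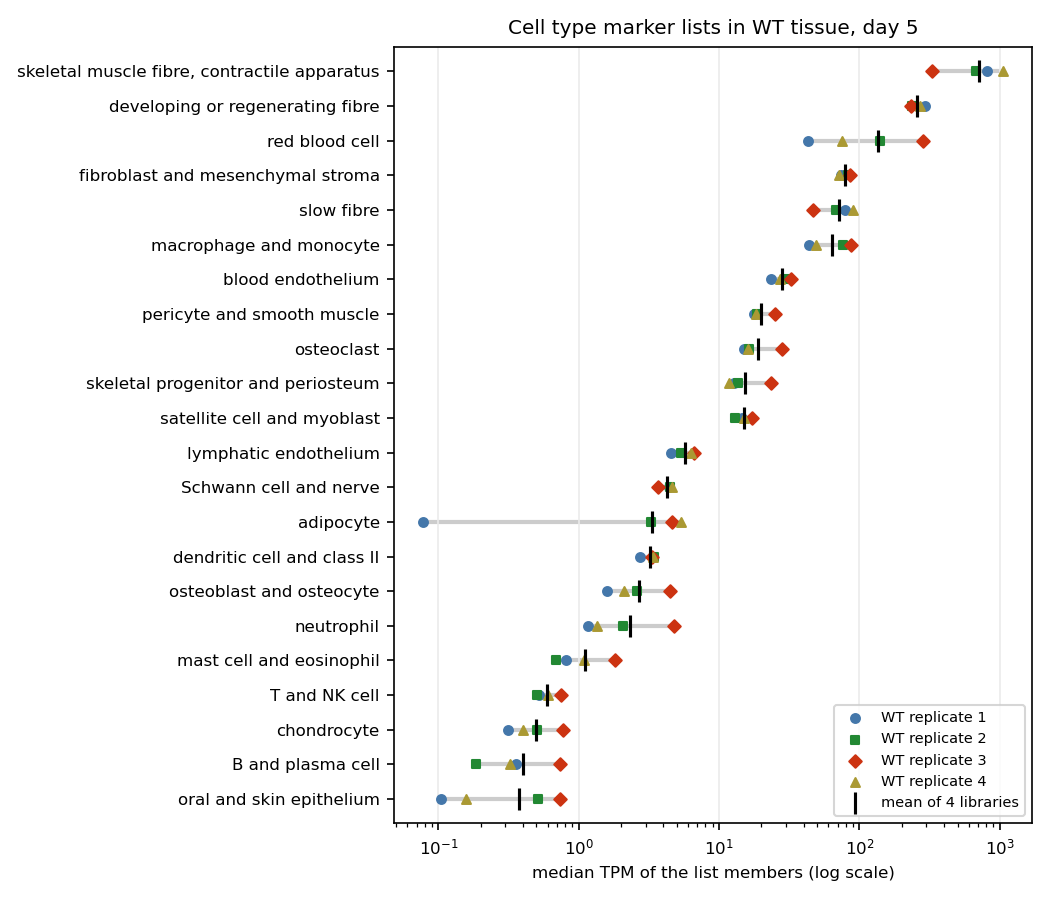
Median TPM (log axis) of the members of 22 cell type lists, ordered by their mean, with 1 marker per WT replicate, a grey line over the range and a black tick for the mean. The salivary gland and tooth lists are left out because their medians were 0 in some libraries; the contractile list runs from 331 TPM in WT replicate 3 to 1054 TPM in replicate 4.

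Stromal genes were broadly present, with 16 of 16 fibroblast markers at 1 CPM or more in every library and 2 of 16 past a 2-fold range, near the 14.0% of all genes. After Postn came Thy1, a surface glycoprotein of fibroblasts and T cells, at 224, 249, 346 and 189 TPM (252 ± 67.6). Dpt, dermatopontin, was at 176, 161, 175 and 172 TPM (171 ± 7.21) and Dcn, decorin, at 158, 186, 181 and 157 TPM (170.3 ± 15.3), with neither above the other beyond the spread. Pdgfra, a receptor that marks mesenchymal progenitors, was at 125, 107, 139 and 95.96 CPM (117 ± 19.2). Among progenitor and periosteal markers, Acta2, the actin of myofibroblasts and smooth muscle, led at 919, 830.3, 1728 and 871 TPM (1087 ± 429). Ctsk, cathepsin K of osteoclasts and periosteal cells, was at 183, 351, 755 and 171 TPM (365 ± 273), and Nes, nestin of progenitors and young muscle fibres, at 399, 284, 324 and 322 TPM (332 ± 47.8). Acta2 and Ctsk were highest in replicate 3, and Nes in replicate 1.

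Bone-forming genes were present at low levels. Runx2, the factor that commits cells to the osteoblast lineage, was at 53.98, 37.2, 64.7 and 35.9 CPM (47.9 ± 13.9). Sp7, its downstream factor in committed osteoblasts, was at 1.70, 3.29, 5.55 and 2.13 CPM (3.17 ± 1.72). Ibsp, bone sialoprotein, was at 4.36, 21.3, 52.8 and 3.65 CPM, a 14.5-fold range with replicates 2 and 3 above replicates 1 and 4. Apart from Spp1 and Tnc, tenascin C, at 1028 ± 370.2 TPM, the list was low, with a median of 1.59, 2.59, 4.51 and 2.11 TPM. Of 16 members 10 were at 1 CPM or more in every library, and Sost and Mepe, genes of mature osteocytes, were under the floor in all.

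Cartilage genes were lower still. Sox9, the master factor of chondrocytes that other progenitors share, was at 30.6, 24.5, 42.2 and 22.4 CPM (29.9 ± 8.90). Sox6, a partner factor that muscle also expresses, was at 38.7, 27.5, 15.1 and 51.1 CPM (33.1 ± 15.4). Acan, the large proteoglycan of cartilage, was at 2.20, 6.26, 35.98 and 4.76 CPM, a 16.3-fold range with replicate 3 alone above 10 CPM. Comp, a protein of cartilage and tendon, was at 0.780, 5.02, 5.97 and 9.25 CPM. Col2a1, the main collagen of cartilage, named after its value was seen, was at 0.780, 1.19, 1.11 and 0.837 CPM. The cartilage matrix genes Matn1 and Snorc were under the floor in every library. In these libraries of muscle together with soft callus, fibrous matrix genes were abundant. The cartilage matrix genes Comp, Col2a1, Matn1 and Snorc stayed under 10 CPM in every library, and so did Acan outside replicate 3. Which part of the tissue the reads came from was not tested.

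Osteoclast genes differed between libraries: 8 of 13 passed a 2-fold range, against 14.0% of all genes. Of the 13, 12 were highest in replicate 3 under both scalings, against 49.8% of all genes (32.1% with TMM). Acp5, tartrate-resistant acid phosphatase, was at 50.6, 79.9, 241 and 57.8 TPM (107 ± 90.1). Mmp9, a gelatinase of osteoclasts and neutrophils, was at 34.5, 51.8, 216 and 41.5 TPM (85.97 ± 87.04). Atp6v0d2, a proton pump subunit needed for osteoclast fusion, was at 29.5, 99.5, 91.2 and 31.02 TPM (62.8 ± 37.7) and was high in replicate 2 as well. Tcirg1, another pump subunit, was at 33.8, 34.9, 70.5 and 41.6 TPM (45.2 ± 17.2).

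Macrophage genes were abundant, with 19 of 20 markers at 1 CPM or more in every library. Lyz2, lysozyme of myeloid cells, was at 4472, 5828, 7435 and 4457 TPM (5548 ± 1413) and in the 15 highest genes by mean TPM; it has a near-identical coding copy, so its count is uncertain. C1qa and C1qb, chains of complement C1q that tissue macrophages make, were at 783, 889, 1602 and 1041 TPM and at 836, 915, 1461 and 973 TPM, and each was the higher in 2 libraries. Cd68, a lysosomal protein of macrophages, was at 521, 714, 1036 and 656 TPM (732 ± 218). Adgre1, the F4/80 antigen, was at 89.4, 106, 152 and 113 CPM (115 ± 26.6). Of the 20 members 17 were highest in replicate 3 and 15 lowest in replicate 1, against 49.8% and 27.5% of all genes. With TMM scaling these were 15 and 14 members, against 32.1% and 22.3%.

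Neutrophil genes were low. S100a9 and S100a8, the calprotectin subunits, were at 31.6, 94.7, 164 and 55.7 TPM and at 35.7, 92.5, 128 and 44.8 TPM, lowest in replicate 1 and highest in replicate 3. Csf3r, the receptor for granulocyte colony-stimulating factor, was at 14.2, 15.9, 29.6 and 22.2 TPM, and Cxcr2, a chemokine receptor, at 4.57, 6.96, 11.9 and 4.91 TPM. Ly6g, the defining surface marker of mouse neutrophils, had 0, 1, 0 and 1 counts, at or under the floor. All 6 members with a mean of at least 1 CPM were highest in replicate 3 under both scalings, against 49.8% of all genes (32.1% with TMM).

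Class II and lymphocyte genes ran from moderate to near the floor. Cd74, the invariant chain of class II, was at 381, 323, 552 and 447 TPM (426 ± 98.2), and H2-Ab1, H2-Eb1 and H2-Aa, class II chains, at 163 ± 28.9, 114 ± 25.7 and 67.2 ± 13.2 TPM, in this order in each library. Cd3e, the defining T cell receptor subunit, was at 0.321, 0.432, 0.793 and 0.343 CPM (0.472 ± 0.219), and 3 of 15 T and NK markers reached 1 CPM in every library. Il7r, the interleukin 7 receptor, led that list at 12.9, 32.1, 23.3 and 14.1 TPM (20.6 ± 8.99), and Cd4, which macrophages can share, was at 4.80, 5.75, 5.29 and 6.42 TPM. Of 8 B and plasma cell markers, Sdc1, syndecan 1, was the 1 at 1 CPM or more in every library, at 48.7, 67.8, 133 and 52.4 TPM, and epithelial and stromal cells also express it. Kit, the receptor of mast cells and other progenitors, at 3.57, 3.27, 5.19 and 3.91 TPM, was likewise the single such member of 11 mast cell and eosinophil markers.

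Vessel genes differed by list: 0 of 12 blood endothelial markers and 7 of 12 pericyte and smooth muscle markers passed a 2-fold range, against 14.0% of all genes. Cdh5, the cadherin of endothelial junctions, was at 220.4, 214, 253 and 234 TPM (230.2 ± 17.3), Pecam1, CD31, at 253, 300.0, 234 and 219 CPM (252 ± 35.1), and Eng, a co-receptor for TGF-beta, at 66.2, 75.1, 104 and 82.03 TPM (81.9 ± 16.3). In the mural list, Des, desmin, was at 4101, 3942, 2316 and 4754 TPM (3778 ± 1036), and skeletal fibres express it too. Rgs5, a pericyte gene, was at 211, 252, 143 and 200.4 TPM (202 ± 44.7), and Tagln, a smooth muscle and myofibroblast gene, at 161, 174, 413 and 203 TPM (238 ± 118). Rgs5 was lowest and Tagln highest in replicate 3. Among lymphatic markers Pdpn, podoplanin, which stromal cells also express, was at 161, 289, 322 and 159.5 TPM, while Prox1, the lymphatic master factor, was at 5.47 ± 0.772 TPM and Mmrn1 had 0 counts.

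Fat, blood and neighbouring organ genes completed the picture. Fabp4, a fatty acid carrier of fat cells and capillaries, was at 114, 163, 114 and 134 TPM (131 ± 22.9), but Adipoq, adiponectin, named after its value was seen, was at 0.0459, 0.755, 0.845 and 1.90 CPM. Hbb-bs, a beta globin of red blood cells, was at 260.4, 926, 1661 and 443 TPM (823 ± 625), and Hba-a1, an alpha globin with a near-identical copy, at 117, 330.4, 591 and 163 TPM. All 5 blood genes with a mean of at least 1 CPM were lowest in replicate 1 and highest in replicate 3, under both scalings. Of all genes, 27.5% were lowest in replicate 1 and 49.8% highest in replicate 3 (22.3% and 32.1% with TMM). Amelx, amelogenin of tooth enamel, had 0, 428, 0 and 1116 counts in the 4 libraries, or 0, 23.1, 0 and 42.5 CPM, so replicates 2 and 4 held it and replicates 1 and 3 did not show a count. Against a floor of 3 counts in replicate 1, replicate 4 was at least 308-fold higher. Bpifa2, a salivary protein, had 0, 370, 0 and 0 counts, and Amy1, salivary amylase, was at 3.21, 13.9, 0.634 and 5.14 CPM. Trp63, the factor of basal epithelium, was at 22.4, 13.2, 8.88 and 15.4 CPM, while the keratins Krt13, Krt1 and Krt4 were under the floor in every library.

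Most growth factor and cytokine genes sat far below the structural genes in TPM. Among the TGF-beta family ligands Tgfb3 led at 166, 143, 209 and 145 TPM (166 ± 30.8), above Tgfb1 at 59.8, 60.96, 109 and 66.3 TPM (74.1 ± 23.6) in each library. Inhba, the activin A subunit, was at 36.7, 36.00, 75.99 and 27.2 TPM (43.98 ± 21.8), and Tgfb2 at 31.2 ± 8.86 TPM. All 11 receptors and antagonists of this family stayed within a 2-fold range, which only 14.0% of all genes passed. Fstl1, a secreted follistatin-like protein, led them at 703, 609, 899 and 608 TPM (705 ± 137), while the receptors Tgfbr2 and Tgfbr1 were at 79.7 ± 13.1 and 42.4 ± 5.88 TPM.

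**Figure D3:**
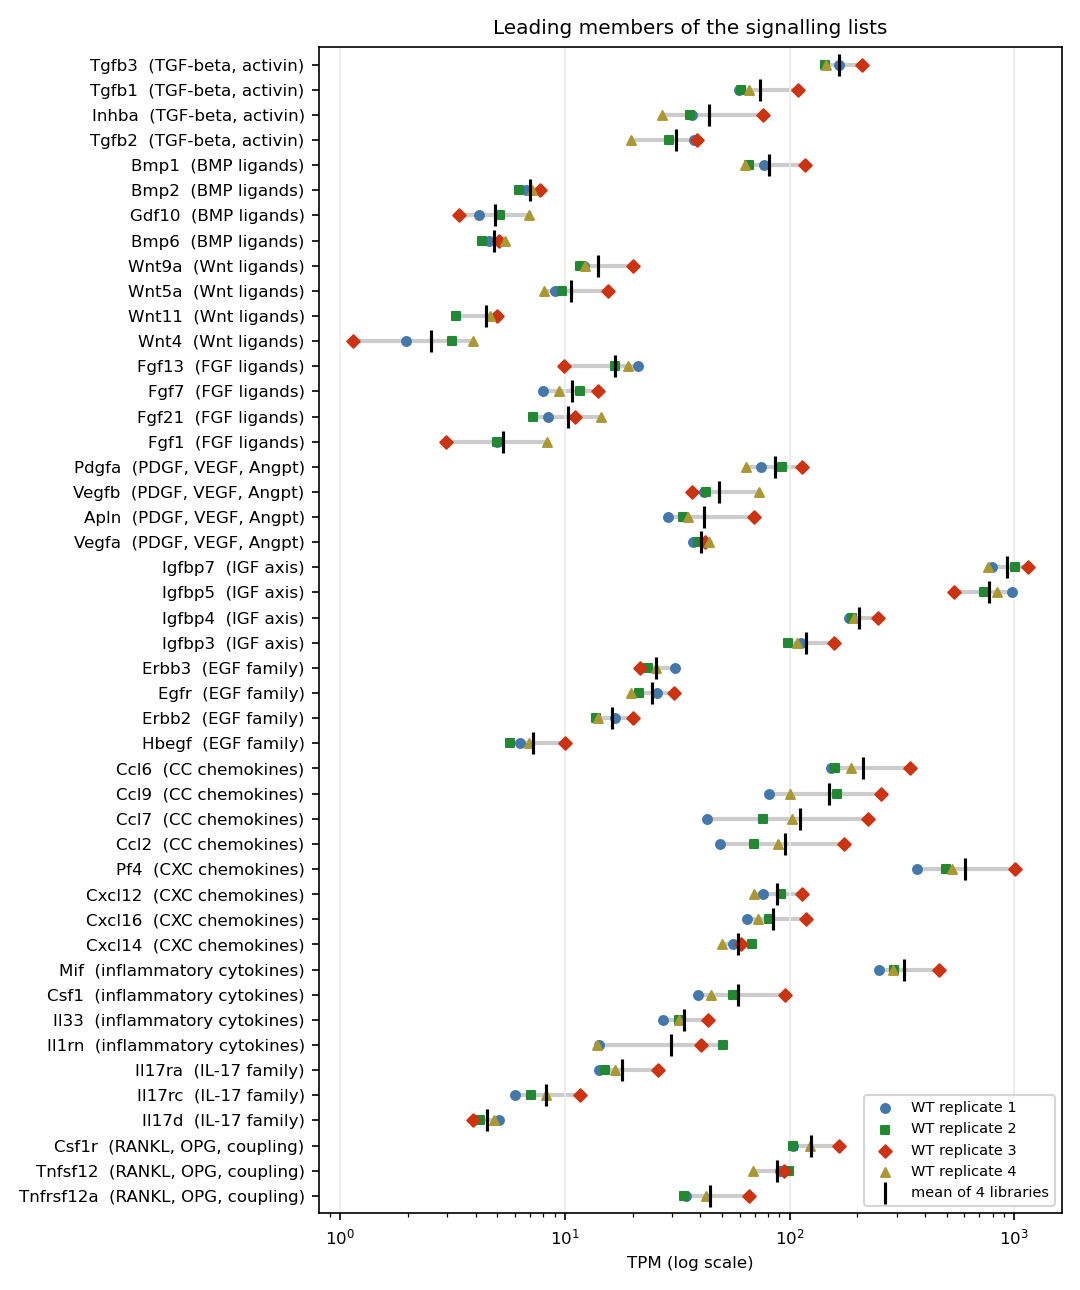
TPM (log axis) of up to 4 of the leading members of 12 signalling lists, grouped by list, with 1 marker per WT replicate, a grey line over the range and a black tick for the mean of the 4 libraries. The insulin-like growth factor binding proteins Igfbp7 and Igfbp5 and the chemokine Pf4 are the furthest right (928.7 TPM on average for Igfbp7). Wnt, FGF and BMP ligands other than Bmp1 reach at most 21.0 TPM in any library.

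Morphogen ligands were scarce next to their receptors and antagonists. Bmp1, a procollagen protease despite its name, was at 77.1, 65.8, 117 and 63.03 TPM (80.8 ± 25.1), and the true ligand Bmp2 at 6.70, 6.22, 7.78 and 7.13 TPM (6.96 ± 0.662). The receptor Bmpr1a was at 60.7 ± 4.18 TPM, and the BMP-responsive factors Id2, Id3 and Id1 were at 46.98 ± 17.7, 43.6 ± 17.5 and 42.9 ± 7.87 TPM, with no order beyond the spread. Wnt9a and Wnt5a led the Wnt ligands at 14.00 ± 4.01 and 10.6 ± 3.33 TPM, in this order in each library. The secreted Wnt antagonists Sfrp2 and Sfrp1 were at 57.8, 154, 214 and 110.4 TPM (134 ± 66.4) and 114 ± 31.7 TPM, and the ratio of Sfrp2 to Wnt5a in TPM was 6.404 to 15.8. Wnt3, Wnt3a, Wnt7a and the antagonists Dkk1 and Sost were under the floor in every library.

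Of the FGF ligands, Fgf13, an intracellular member of the family, was at 21.04, 16.7, 9.86 and 19.02 TPM (16.6 ± 4.87), Fgf7, a stromal factor for epithelium, at 7.96, 11.6, 13.98 and 9.39 TPM and Fgf21, a stress hormone, at 8.40, 7.22, 11.1 and 14.5 TPM. The receptor Fgfr1 was at 56.97, 44.9, 81.7 and 51.1 TPM (58.7 ± 16.1) and Fgfr4, which regenerating muscle expresses, at 28.6 ± 5.56 TPM. Fgf23 and the co-receptor Klb were under the floor in all libraries. Pdgfa, a mitogen for mesenchymal cells, led the vascular group at 74.3, 92.3, 114 and 64.1 TPM (86.1 ± 21.8). Vegfa, the main vessel growth factor, was at 37.01, 38.9, 41.9 and 43.98 TPM (40.5 ± 3.10) and was the steadier, while Apln, apelin of sprouting endothelium, was at 28.7, 33.4, 69.2 and 35.4 TPM with replicate 3 highest.

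The IGF axis was the most abundant of the 18 signalling lists, with 0.356, 0.310, 0.272 and 0.330% of counts (0.317 ± 0.0353%). Its leaders were binding proteins. Igfbp7 was at 792, 1003, 1154 and 766 TPM (929 ± 184), highest in replicate 3, and Igfbp5 at 980.4, 729.6, 539 and 841 TPM (772 ± 186), lowest in replicate 3, so each led in 2 libraries. Igfbp4 and Igfbp3 were at 204 ± 30.2 and 119 ± 26.3 TPM. The ligands Igf1 and Igf2, named after their values were seen, were at 64.8, 53.7, 70.1 and 74.7 and 51.1, 23.3, 38.7 and 40.3 TPM. In the EGF family the receptors Erbb3, Egfr and Erbb2 were at 25.4 ± 3.99, 24.3 ± 4.90 and 16.1 ± 2.96 TPM, above the ligand Hbegf at 6.30, 5.71, 9.96 and 6.95 TPM. In the Notch and Hedgehog list Heyl, a Notch target, was at 39.2 ± 4.60 TPM and Smo, the Hedgehog transducer, at 35.7 ± 7.54 TPM.

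Of 12 CC chemokines with a mean of at least 1 CPM 11 passed a 2-fold range, as did 7 of 12 CXC members and 8 of 12 inflammatory cytokines, against 14.0% of all genes. Replicate 3 was highest for 9 of the 12 CC chemokines, and for 7 with TMM scaling, against 49.8% and 32.1% of all genes. Ccl6 and Ccl9, macrophage chemokines of rodents, were at 153, 159, 345 and 187 TPM and 81.1, 162, 255 and 101 TPM. Ccl7 and Ccl2, which attract monocytes, were at 43.1, 75.99, 224 and 103 TPM and 48.99, 69.2, 174 and 89.2 TPM, with replicate 3 the highest for both. Ccl17 was under the floor in every library. Pf4, a chemokine of platelets and some macrophages, was at 369.6, 499, 1010.5 and 526 TPM (601 ± 281), above the other CXC members in each library. Cxcl12, the stromal ligand of Cxcr4, was at 75.9, 91.2, 113 and 69.7 TPM (87.5 ± 19.5) and Cxcl16 at 84.2 ± 23.9 TPM, with no order beyond the spread.

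The inflammatory cytokine list was led by Mif, a constitutive cytokine, at 249.6, 291, 461 and 289.6 TPM (323 ± 94.02). Csf1, the macrophage growth factor, was at 39.1, 55.95, 95.4 and 44.5 TPM (58.7 ± 25.4) and Il33, an alarmin of stromal cells, at 27.4, 32.1, 43.2 and 32.3 TPM (33.8 ± 6.69). Il1rn, the interleukin 1 receptor antagonist, was at 14.1, 50.4, 40.5 and 13.9 TPM (29.7 ± 18.6), high in replicates 2 and 3. Its ratio to Il1b, the ligand it blocks, in TPM was 1.10, 1.61, 1.04 and 0.490. Il6 and Tnf, named after their values were seen, were at 1.42, 2.37, 1.64 and 1.79 CPM and 1.01, 1.35, 3.65 and 1.56 CPM. Ifnb1, Csf3 and Ifng were under the floor in every library.

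The IL-17 family was represented by receptors rather than by its inflammatory ligands. Il17ra, the shared receptor chain, was at 41.7, 45.95, 69.5 and 50.2 CPM (51.8 ± 12.3) and Il17rc, its partner, at 5.98, 7.08, 11.6 and 8.25 TPM (8.24 ± 2.45). Il17a, Il17f and Il17c had 0 counts in all 4 libraries, which allows at most 0.114 to 0.162 CPM, and Il25, Il17re and Il17rb were under the floor. Il17d, a divergent member, was at 5.10, 4.19, 3.89 and 4.84 TPM (4.50 ± 0.562).

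The list named for RANKL, osteoprotegerin and coupling was led by Csf1r, the receptor for Csf1, at 104, 103, 166 and 123 TPM (124 ± 29.5). Csf1r is also on the macrophage list. Tnfsf12, the cytokine TWEAK, was at 90.3, 99.4, 94.6 and 69.1 TPM and its receptor Tnfrsf12a at 34.7, 33.9, 66.2 and 42.5 TPM. Tnfsf11, RANKL, and Tnfrsf11b, its decoy receptor osteoprotegerin, named after their values were seen, were at 2.43, 4.32, 8.61 and 2.28 CPM and 2.85, 4.32, 5.13 and 2.93 CPM. Their ratio in TPM was 1.08, 1.26, 2.12 and 0.982, highest in replicate 3. Among complement genes C1qa and C1qb, given above, were followed by C1qc at 333 ± 124 TPM and C3ar1, the receptor for C3a, at 128, 129, 226 and 145 TPM (157 ± 46.8).

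Proliferation genes were present in every library. The 20 genes held 0.115, 0.116, 0.170 and 0.111% of counts (0.128 ± 0.0280%), and 0.114% on average without replicate 3. All 20 were highest in replicate 3 under both scalings, against 49.8% of all genes (32.1% with TMM). A 2-fold range was passed by 0 of 20, against 14.0% of all genes. Pcna, the replication clamp, was at 71.1, 86.4, 129.6 and 71.6 TPM (89.7 ± 27.5), Mki67, the Ki-67 antigen, at 78.3, 72.3, 114 and 68.6 TPM (83.3 ± 20.9) and Ccnb2, a mitotic cyclin, at 59.9, 61.9, 93.3 and 58.2 TPM (68.3 ± 16.7). Replicate 3 stood above the other 3 libraries for each of these.

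The type I interferon response was uneven, with 13 of 18 genes past a 2-fold range, against 14.0% of all genes. Of the 18, 17 were highest in replicate 3 (16 with TMM), against 49.8% of all genes (32.1% with TMM). Bst2, tetherin, was at 51.4, 73.99, 159 and 101 TPM (96.2 ± 46.4), and Isg15, a ubiquitin-like protein, at 26.1, 28.9, 90.3 and 45.3 TPM (47.7 ± 29.7). Replicate 4 was second for both. Immediate early and heat shock genes were close to level in their summed share, at 0.267, 0.278, 0.272 and 0.256% of counts. Of this mean share of 0.268%, Hspa8, a constitutive chaperone, held 0.139%. Their members were less level: 4 of 19 passed a 2-fold range, against 14.0% of all genes. The list median was 44.5, 57.5, 70.2 and 51.4 TPM. Hspa8 was at 991, 945, 1022 and 899 TPM and Jun, a stress-responsive factor, at 205, 165, 181 and 178 TPM. Hypoxia genes held 0.127, 0.125, 0.144 and 0.129% of counts, and 5 of 14 passed a 2-fold range (3 with TMM), against 14.0% of all genes. Pgk1, a glycolytic kinase, was at 293, 296, 443 and 353 TPM, and Hif1a, the oxygen-sensing factor, at 166, 144, 220.0 and 119.6 TPM.

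**Figure D4:**
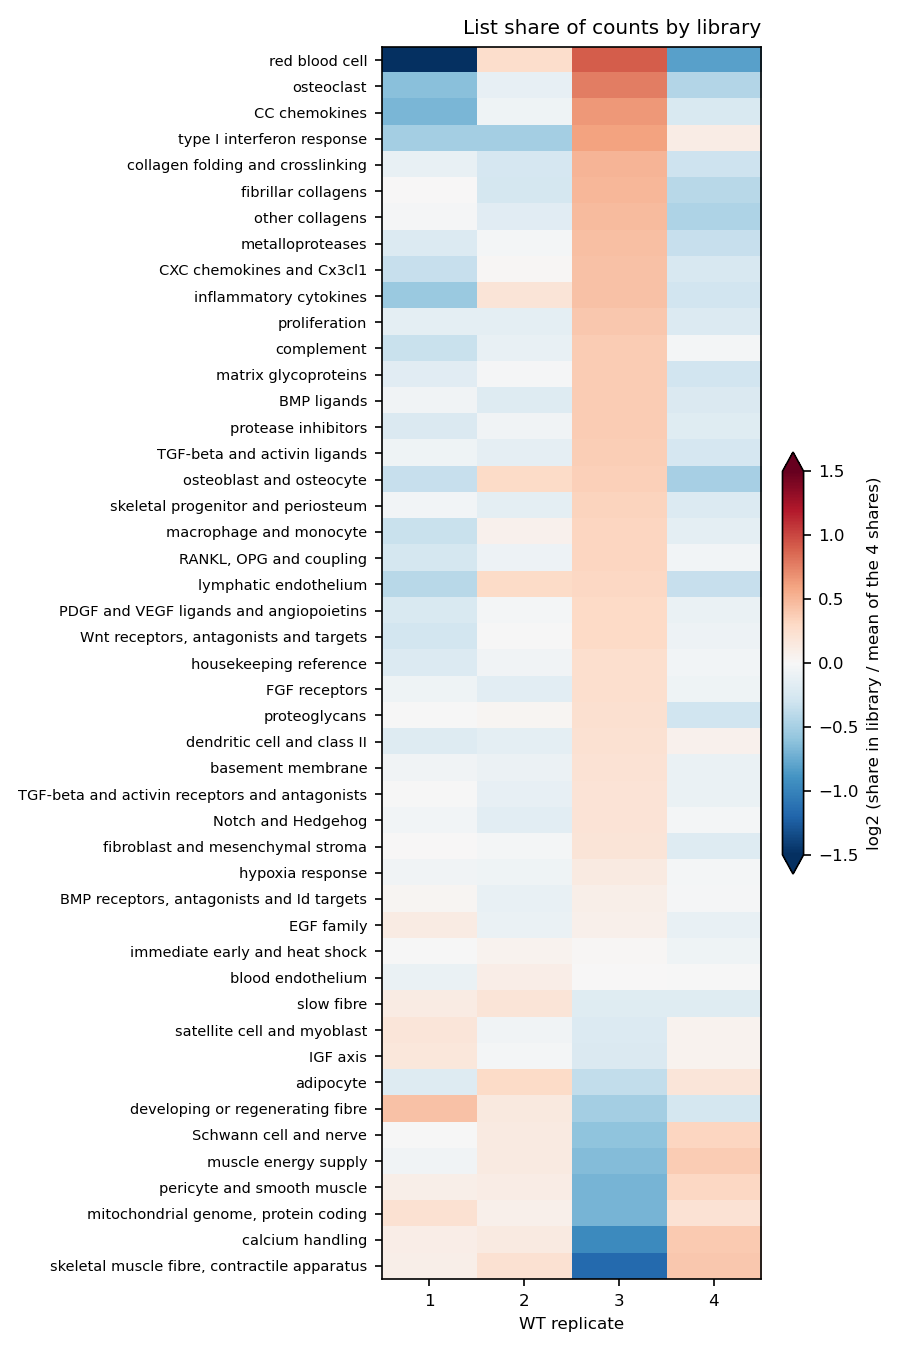
Log2 ratio of each list's share of counts in a WT replicate to the mean of its 4 shares, for the lists with a mean share above 0.01%, ordered by replicate 3; red is above and blue below the mean, and colours are capped at 1.5 either way. Replicate 3 is red for matrix, myeloid, osteoclast and chemokine lists and blue for muscle, calcium handling and mitochondrial lists.

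The shares of lists in replicate 3 were set against the mean of the other 3 libraries. The contractile list was at 0.375 of it, calcium handling at 0.445 and the mitochondrial list at 0.546. On the other side, red blood cell genes were at 2.65 times that mean, osteoclast genes at 2.22, CC chemokines at 1.94, fibrillar collagens at 1.63 and proliferation genes at 1.49. Blood endothelium was at 1.01 and the 12 housekeeping genes at 1.28. Shares of 1 total depend on each other, and what part the smaller muscle share has in the higher shares of other lists was not tested.

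Ranges were ranked among genes with a mean of at least 10 CPM, with predicted genes, pseudogenes and antigen receptor segments left out. The 12 widest included those of Amelx, Acan, Ibsp, Pvalb and Mmp13, given above. The others were Perm1, a regulator of muscle mitochondria, at 9.04, 8.95, 2.54 and 38.2 CPM, Scn4b, a sodium channel subunit, at 16.3, 25.5, 5.60 and 64.3 CPM, and Car3, the carbonic anhydrase of slow muscle and fat, at 135, 75.6, 13.3 and 151 CPM. Angptl7, Rpl3l, a muscle form of a ribosomal protein, and Myoz3, a Z-disc protein, had 12.1-fold, 9.25-fold and 8.97-fold ranges, each lowest in replicate 3. Eif2s3y, a translation factor gene on the Y chromosome, was at 66.6, 6.26, 46.6 and 63.2 CPM, lowest in replicate 2. At the other end, the 10 narrowest ranges were 1.02-fold to 1.03-fold. Among these, Dapk3, a kinase, was at 28.8, 28.9, 29.3 and 29.3 CPM. Prpf18, a splicing factor, was at 40.6, 40.7, 41.4 and 41.5 CPM and Etf1, the translation release factor, at 234, 234, 237 and 231 CPM.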

How the data were processed

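Polyadenylated RNA was sequenced in 7 mouse samples, of which the 4 WT libraries were used. The authors deposited raw read counts per gene and, beside them, a count signal normalized with DESeq2, per the file headers. The submitters' processing notes name the build GRCm39 and the tools DESeq2, HTSeq, TopHat, cutadapt, FastQC and bcl2fastq, without versions or settings. Count columns WT3 to WT6 were matched to the samples titled WT1 to WT4 by the library name in each sample's description, and are called WT replicates 1 to 4.

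CPM were computed as counts over the plain library total. TPM used exon-union lengths from GENCODE vM21 on GRCm38, an older build, for 48361 of 49164 gene rows with counts; the other 6250 of 55414 rows were blank, T cell receptor and immunoglobulin genes among them. Genes with no WT count numbered 22771. Near-identical coding copies (at least 95% identity over 80% of the length, BLAST 2.17.0) were found for 11 genes of the lists. TMM factors and the biological coefficient of variation came from edgeR 4.0.16 in R 4.3.3, tested on simulated data; other steps used Python 3.11.15 with pandas 2.3.3. Floors of 3 counts cover counting error only. Between pairs of libraries the mean chi-square over genes was 23.1 to 145, so no library repeated another. The deposited table has 3 further columns of normalized values that were not used.

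The 58 gene lists (770 entries, 743 genes) and the members were chosen with earlier results of these data known. Named are the 30 genes highest by mean CPM and 15 by mean TPM, the first 4 of each list by mean TPM, signalling genes under the floor in all libraries, the 12 widest and 10 narrowest ranges at a mean of 10 CPM or more, and 12 defining markers. Predicted genes, pseudogenes and antigen receptor segments were left out before the ranges were ranked. Others are named after their values were seen, among them list members under the floor. Some genes that these rules name are not reported here. No test between groups was made. Alternatives were TMM scaling, the deposited normalized signal, other minimums, totals without mitochondrial or muscle genes, other list summaries and lengths, RLE normalization, no filter, and each library left out.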

Additional observations from a re-analysis of the deposited data

Results flagged for a closer look

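In groups of 4 libraries, 1 library was called far from the rest when its gap to the nearest other passed Dixon's critical share of the whole range. Chance alone flags about 1 in 20 groups, but some named genes were chosen for wide ranges, so the counts cannot be read against that rate. Of 255 named genes 23 were called and of 58 lists 4, and the outlying library was WT replicate 3 in 23 cases, replicate 2 in 3, replicate 4 in 1 and replicate 1 in 0.

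In WT replicate 3, matrix genes stood above the other 3 libraries: Sparc was at 6151 CPM (others 3665 to 3886), Serpinh1, the collagen chaperone, at 2592 CPM and P4hb at 1308 CPM. P4ha1, a prolyl hydroxylase subunit, was at 225 CPM, Col12a1 at 1562 CPM and Hspg2, perlecan of basement membranes, at 961 CPM. The basement membrane list took 0.521% of counts there (others 0.419% to 0.431%). Proteases followed the same direction, with Mmp14 at 874 CPM, Mmp2 at 391 CPM, Mmp9 at 237 CPM (others 41.4 to 64.8) and Mmp13 at 75.2 CPM. Acta2 was at 1174 CPM and Acan at 36.0 CPM in this library.

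Signals called high in replicate 3 were Wnt9a at 20.6 CPM, with the Wnt ligand list at 0.00783% of counts (others 0.00540% to 0.00553%), Dkk3, a secreted glycoprotein related to Wnt antagonists, at 59.2 CPM, and Id3 at 38.6 CPM. Jchain, the joining chain of plasma cells, was at 0.793 CPM. The proliferation list took 0.170% of counts (others 0.111% to 0.116%). Called low in replicate 3 were Neb, the giant thin-filament protein of muscle, at 1291 CPM (others 3107 to 3402), Tpm2, a tropomyosin, at 2261 CPM, mt-Nd1 at 11650.1 CPM and mt-Nd2 at 7078 CPM. Its TMM factor was 1.09 against 0.961 to 0.988 in the other libraries, and the part of library composition in these values was not tested.

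In WT replicate 2 salivary genes stood out: Bpifa2 was at 19.96 CPM with 0 counts in the others, Dcpp1 at 1.73 CPM, and the salivary gland list took 0.00364% of counts (others 0.000116% to 0.000537%). In replicate 4, Ambn, an enamel matrix gene, was at 9.82 CPM against 0 to 1.62 CPM in the others.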

How the results depend on the processing

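No paired analysis was possible because a single group was used. The number of genes with a 2-fold range was 1915; with a minimum mean of 10 CPM it was 778, with no minimum 4400, and leaving out 1 library gave 664 (without replicate 3) to 1585. The lower and higher minimums change which genes are counted. The number of genes at 1 CPM in every library (13076) became 8929 at 10 CPM and 13152 to 13239 with 1 library left out. Genes holding 50% of counts numbered 575 on the mean CPM, 774 without mitochondrial genes and 531 to 591 with 1 library left out. With 1 library left out the contractile share (4.47%) ran from 3.98% to 5.30%, the mitochondrial share (9.28%) from 8.74% to 10.5%, the fibrillar collagen share (3.89%) from 3.36% to 4.21%, and the pairs of lists in 1 order (246) from 246 to 255. The biological coefficient of variation, edgeR's estimate of spread beyond counting error, was 0.201, and 0.143 (without replicate 3) to 0.221. TMM scaling, chosen after seeing the data for lists and genes, moved the share of all genes highest in replicate 3 from 49.8% to 32.1%. At these depths, levels under 0.114 to 0.162 CPM were not detectable.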

Other observations

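Genes of the sex chromosomes, looked at after the values were seen, set WT replicate 2 apart. Xist, the RNA of the inactive X chromosome, had at most 1 count in any library. The Y-linked genes Ddx3y, Eif2s3y, Kdm5d and Uty were nevertheless at 13.8%, 10.6%, 13.7% and 24.0% of the mean of the other libraries in replicate 2. Kdm5d, a histone demethylase gene, was at 25.4, 3.34, 22.9 and 25.05 CPM in replicates 1 to 4, and Uty at 22.7, 5.39, 19.8 and 24.8 CPM. The labels do not give the sex of the animals, and what sets these values was not tested.

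TATAAA and E-boxes were also counted in the promoter windows of 3 lists. TATAAA lay in 5 of 18 windows of the contractile list, 1 of 7 of the fibrillar collagens and 0 of 16 of the macrophage list, against 12.4% of all windows and 6.94% of those of genes with a mean of at least 1 CPM. E-boxes lay in 14 of 18, 4 of 7 and 14 of 16 windows, against 66.2% and 58.0%. These are counts of letters and were not tested.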
